A study of Mus musculus with 6 samples.

Results

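The subject here is lipoprotein lipase and 8 genes that take up, carry, store or release the fatty acids it sets free. The 9 genes, Lpl, Lmf1, Angptl4, Cd36, Fabp3, Fabp4, Plin2, Pnpla2 and Lipe, were picked by symbol from the 38720 rows of the deposited table of normalized counts. They were picked with the difference between the 2 groups already known, so that difference is given for them as a description and without a test. All 9 passed the filter on low values. The libraries were made from the neck region of the gastric gland, cut by laser capture microdissection from frozen sections of the stomach corpus of B6:129S5 mice. The 3 Cldn18 knockout libraries came from CLDN18-/- mice and the 3 wild-type libraries from CLDN18+/+ mice; Cldn18 encodes claudin 18, a tight junction protein of the stomach lining. Age is recorded as 7 weeks with the samples but as 7 days in the series text, and it was not settled here. No treatment is listed for either group. Whether each library stands for its own mouse is not stated, so p-values reflect the scatter of these libraries alone, which could be technical.

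Lipoprotein lipase splits the triglyceride of circulating lipoproteins at the capillary wall. The enzyme folds in the endoplasmic reticulum with the help of LMF1, is carried across the endothelium and held there by GPIHBP1, needs apolipoprotein C-II as its cofactor and is switched off by angiopoietin-like proteins. The fatty acids set free enter cells with the help of CD36 and are bound inside them by small fatty acid-binding proteins. They are burned in mitochondria or stored in lipid droplets, from which adipose triglyceride lipase (Pnpla2) and hormone-sensitive lipase (Lipe) release them again. Heart, skeletal muscle and fat are the tissues best known for this pathway, and the acid-secreting parietal cell of the stomach is rich in mitochondria.

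Between 37673283 and 52842813 reads per library were assigned to genes. Of these, Gm26924 alone took 40.7% to 41.1% in knockout libraries and 38.6% to 45.4% in wild-type libraries, so the depth left for other genes was much smaller. Mitochondrial transcripts took 1.39% ± 0.15 of the reads in knockout libraries and 3.78% ± 0.50 in wild-type libraries (SD, n = 3 each). Cldn18 itself was at 13035, 16798 and 15818 normalized counts in knockout libraries 1, 2 and 3, against 30498, 21210 and 23241 in wild-type libraries 1, 2 and 3, so that every knockout value lay below every wild-type value, but the gene was still read. Which part of it is deleted was not stated, and these counts cover the whole gene. Wild-type libraries 2 and 3 stood apart from wild-type library 1: 1416 of 17432 tested genes (8.12%) exceeded their level in library 1 by a factor of 3 or more in library 2 and of 1.5 or more in library 3. None of the 9 genes was among them, and their values against wild-type library 1 alone are given in the section on processing.

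Promoter sequence of the reference was at hand for 6 of the 9 genes (RefSeq, GRCm38.p6; 250 bases before to 50 after the gene's start). It is shown for Fabp3 and Cd36, the 2 with the largest decreases among these 6, and for Plin2, which was higher in the knockout. Capitals mark the nuclear receptor core motif AGGTCA on either strand, the unit to which PPAR and ERR receptors bind.
Fabp3 (chr4:130308488-130308787, plus strand): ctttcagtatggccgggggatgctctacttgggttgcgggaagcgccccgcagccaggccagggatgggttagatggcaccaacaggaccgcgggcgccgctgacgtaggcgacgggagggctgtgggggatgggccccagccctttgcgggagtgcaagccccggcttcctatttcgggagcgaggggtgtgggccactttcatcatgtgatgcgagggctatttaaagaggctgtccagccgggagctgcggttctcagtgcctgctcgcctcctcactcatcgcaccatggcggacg
Cd36 (chr5:17835847-17836146, minus strand): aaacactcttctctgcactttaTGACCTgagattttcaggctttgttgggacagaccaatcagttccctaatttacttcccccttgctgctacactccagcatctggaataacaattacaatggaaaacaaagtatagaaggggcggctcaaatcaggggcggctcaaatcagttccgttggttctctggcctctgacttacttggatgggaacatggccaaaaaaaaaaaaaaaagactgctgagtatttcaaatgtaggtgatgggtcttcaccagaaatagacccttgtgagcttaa
Plin2 (chr4:86670010-86670309, minus strand): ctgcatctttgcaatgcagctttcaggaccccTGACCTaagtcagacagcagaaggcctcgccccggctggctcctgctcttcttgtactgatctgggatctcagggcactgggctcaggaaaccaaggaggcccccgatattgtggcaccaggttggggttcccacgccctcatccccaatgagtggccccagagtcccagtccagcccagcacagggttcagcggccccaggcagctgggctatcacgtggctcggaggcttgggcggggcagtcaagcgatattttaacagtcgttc
The core motif occurred once in the Cd36 window, starting at position -228 from the gene's start, and once in the Plin2 window, at position -218. It occurred in 16.3% of 32851 promoter windows of this length. No match was found in the Fabp3 window, nor in those of Lipe, Lmf1 and Pnpla2. Starts here are those of RefSeq. The Cd36 window lies inside the gene as GENCODE vM21 draws it, at 1 of several starts. The Lipe windows lie inside their gene too, and most of the Fabp3 window does, since GENCODE vM21 starts Fabp3 at chr4:130308595. The full PPAR element DR1, a repeat of the core motif with 1 base between the copies (0.0396% of windows), the ERR element TNAAGGTCA (1.28%) and the TATA box TATAAA (13.6%), searched on both strands, were found in none of these windows. The longer elements hold the core motif in their own letters. These matches are a description of the letters.

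Among the 9 genes, Lpl, Cd36, Fabp3 and Fabp4 had the lowest knockout levels relative to wild-type. Lpl, Cd36 and Fabp3 were at 2.25%, 2.46% and 0.784% of their mean wild-type levels, and Fabp4 was at 19.9%. The genes for releasing stored fat, Pnpla2 and Lipe, were at 45.2% and 58.0%. The chaperone gene Lmf1 was at 70.5% and the inhibitor gene Angptl4 at 117%, while the droplet coat gene Plin2 was at 163%. In the limma fit across 17432 genes, 6 of the 9 passed the threshold of adjusted p under 0.05 as lower and 1 as higher. Of all tested genes 44.7% were called, 21.5% as lower and 23.3% as higher. The 3 knockout values lay wholly below the 3 wild-type values for 7 of the 9 genes and wholly above for 1, where 55.2% of all tested genes did not overlap, 27.1% with the knockout below and 28.1% with it above. Since this contrast chose the 9 genes, nothing is read from these counts. Their median log2 difference was -1.15, against -0.02 over all tested genes.

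**Figure D1:**
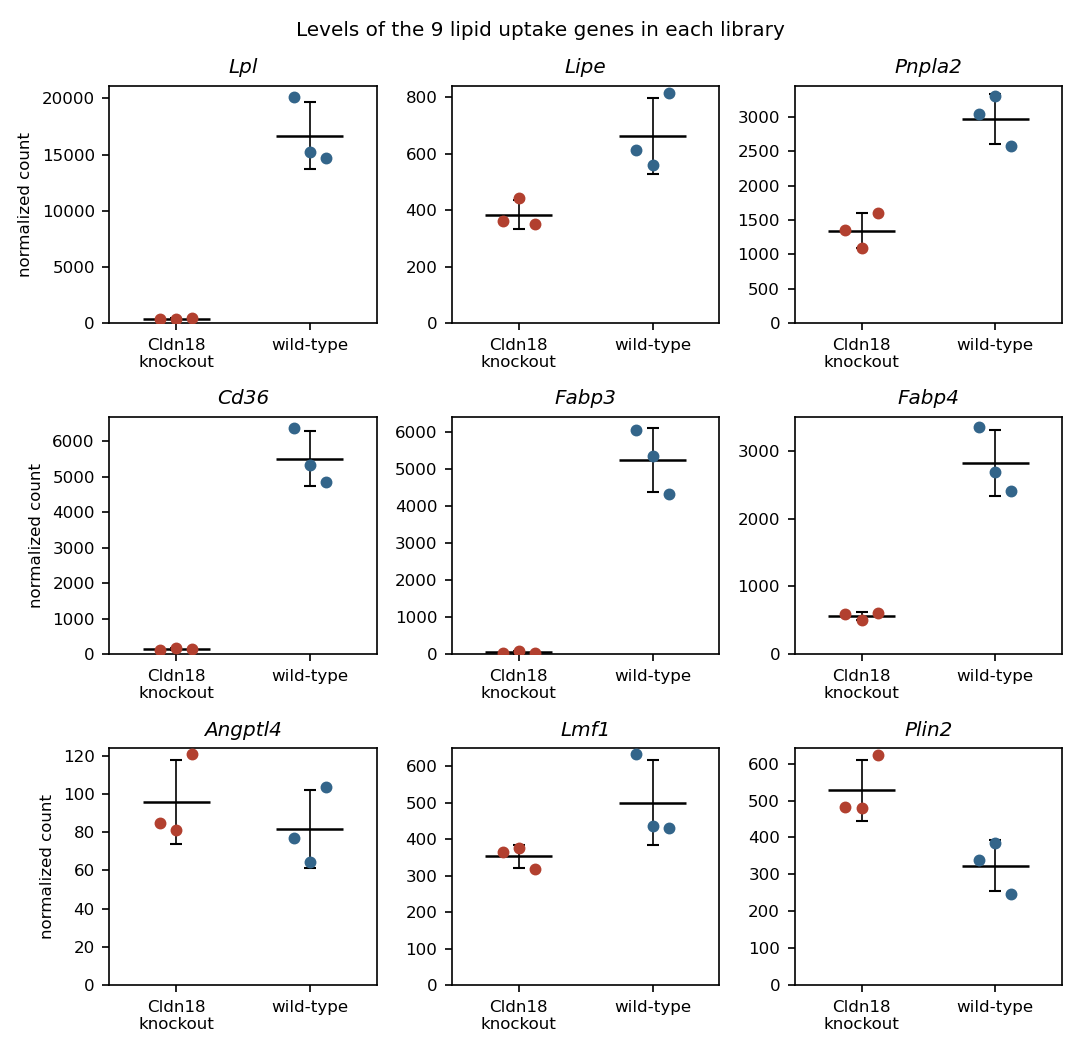
Normalized counts of the 9 genes in each library, with knockout libraries on the left and wild-type libraries on the right of each panel; the y axis is linear, starts at 0 and differs between panels. Points are libraries 1 to 3 from left to right, and the line and bar are the mean and SD (n = 3). The Lpl values lie between 329 and 415 in knockout libraries and between 14691 and 20121 in wild-type libraries, and Plin2 is the gene whose knockout values all lie above the wild-type ones.

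Lpl encodes the lipase itself (ENSMUSG00000015568.16, chr8:68880491-68907448, plus strand; all gene positions are from GENCODE vM21 on mm10). It was at 383, 329 and 415 normalized counts in knockout libraries, against 20121, 15217 and 14691 in wild-type libraries. Every knockout value was far below every wild-type value, with a spread within each group that was small beside the gap. The log2 difference was -5.46 ± 0.16 (SE), the 62nd most negative of the 17432 tested genes. The lowest library still held 406 reads on the gene.

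Lmf1 encodes lipase maturation factor 1 (ENSMUSG00000002279.19, chr17:25579085-25662826, plus strand). It had 365, 375 and 317 normalized counts in knockout libraries, against 634, 437 and 430.2 in wild-type libraries. The groups did not overlap, but wild-type library 1 stood well above the other 2. Its log2 difference was -0.48 ± 0.20 (SE), or -0.30 without wild-type library 1.

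Angptl4 encodes a secreted inhibitor that unfolds lipoprotein lipase (ENSMUSG00000002289.16, chr17:33773750-33781830, minus strand). It stood at 85.0, 81.3 and 121 normalized counts in knockout libraries and at 77.1, 64.2 and 104 in wild-type libraries. The groups overlapped, and its log2 difference was 0.23 ± 0.32 (SE). The gene is thus read at a low level in both groups, and the difference is smaller than its error.

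Cd36 encodes a fatty acid translocase and scavenger receptor of the cell surface (ENSMUSG00000002944.15, chr5:17781690-17888801, minus strand). It was at 115, 163 and 128 normalized counts in knockout libraries, against 6370, 5322 and 4840.5 in wild-type libraries. The log2 difference of -5.34 ± 0.18 (SE) was close to that of Lpl, and the groups were as widely separated.

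Fabp3 encodes the fatty acid-binding protein best known from heart muscle (ENSMUSG00000028773.8, chr4:130308595-130315463, plus strand). It was at 17.9, 78.3 and 26.9 normalized counts in knockout libraries, against 6038, 5342 and 4324 in wild-type libraries. This was the most negative of the 9 log2 differences (-7.22 ± 0.42 SE), ranked 11th from the lowest over all tested genes. Knockout library 2 held several times the level of the other 2 knockout libraries, and the coefficient of variation was 79.3% in the knockout, against 16.5% in wild-type. Without knockout library 2 the log2 difference was -7.82. Knockout library 1 rested on 19 reads. Reads of this gene are uncertain to a degree, because its exons overlap those of Zcchc17 and Gm10570 on the other strand and strandedness was not stated. Zcchc17 was at 1177, 1067 and 1134 normalized counts in knockout libraries, against 961, 863 and 756 in wild-type, and Gm10570 at no more than 2.47. A copy of the gene, Fabp3-ps1, was at 2.83, 0 and 0 in knockout libraries, against 51.4, 74.1 and 46.6 in wild-type libraries.

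Fabp4 encodes the fatty acid-binding protein of adipocytes, macrophages and capillary endothelium (ENSMUSG00000062515.3, chr3:10204088-10208576, minus strand). It was at 587, 496 and 601 normalized counts in knockout libraries, against 3358, 2683 and 2409 in wild-type libraries. The log2 difference was -2.32 ± 0.16 (SE). The groups were clearly apart, but the gene kept a far larger part of its wild-type level than Fabp3 did.

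Plin2 encodes perilipin 2, a coat protein of lipid droplets in most cell types (ENSMUSG00000028494.12, chr4:86648386-86670060, minus strand). It was at 483, 479 and 624 normalized counts in knockout libraries, against 340.3, 384 and 248 in wild-type libraries. All knockout values lay above all wild-type values, by a log2 difference of 0.72 ± 0.21 (SE). Its passing of the threshold depended on single libraries: it was lost without knockout library 3 (log2 difference 0.59) and without wild-type library 3 (0.54).

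Pnpla2 encodes adipose triglyceride lipase, which takes the first fatty acid from stored triglyceride (ENSMUSG00000025509.15, chr7:141455198-141460743, plus strand). It was at 1350, 1086 and 1596 normalized counts in knockout libraries, against 3043, 3298 and 2577 in wild-type libraries, a log2 difference of -1.15 ± 0.17 (SE). Lipe encodes hormone-sensitive lipase, which acts next on diglyceride (ENSMUSG00000003123.15, chr7:25379527-25398710, minus strand). It was at 359.8, 442 and 351 normalized counts in knockout libraries, against 614, 558 and 816 in wild-type libraries, a log2 difference of -0.77 ± 0.19 (SE). For both genes the groups did not overlap, but the gap was much smaller than that of Lpl. Lipe overlaps the antisense gene 4732471J01Rik, which had at most 3.69 normalized counts in any library.

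Levels can be set beside each other between genes only per length, here as normalized counts per kilobase of merged exon. In knockout libraries Pnpla2 stood first with 445 ± 84.5, followed by Plin2 with 150 ± 23.5 and Fabp4 with 125 ± 12.7 (SD, n = 3). Lipe (65.3 ± 8.5), Fabp3 (49.9 ± 39.6), Cd36 (37.7 ± 6.9), Lpl (35.9 ± 4.2), Angptl4 (27.1 ± 6.2) and Lmf1 (26.0 ± 2.3) came after them, and each of these overlapped its neighbour in the order. In wild-type libraries Fabp3 stood first with 6361 ± 1048 per kilobase, then Lpl with 1592 ± 286 and Cd36 with 1535 ± 218, which overlapped each other. Pnpla2 (984 ± 121), Fabp4 (627 ± 109), Lipe (113 ± 23), Plin2 (92.2 ± 19.8), Lmf1 (36.8 ± 8.5) and Angptl4 (23.1 ± 5.7) followed, and of these only Lipe and Plin2 overlapped. The order of the 9 genes thus differed between the groups: the 3 highest genes of the wild-type libraries ranked between 5 and 7 in the knockout libraries.

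The fatty acid-binding proteins form a family of small carriers, and the 2 members described above were set beside the other 8 of the family. Per kilobase, Fabp3 made up 0.474%, 2.48% and 0.552% of the summed level of the 10 genes in knockout libraries, against 69.3%, 75.2% and 71.9% in wild-type libraries. Fabp5, the carrier best known from skin, made up 91.9%, 90.8% and 94.8% in knockout libraries and 15.0%, 11.8% and 13.6% in wild-type libraries. The level of Fabp5 was 15073, 12405 and 20014 normalized counts in knockout libraries, against 5650.3, 3618 and 3553 in wild-type libraries. It rose by a log2 difference of 1.90 ± 0.22 (SE; limma adjusted p = 8.93e-05). Summed over the family, the level per kilobase was 4785 ± 1057 in knockout libraries and 8841 ± 1653 in wild-type libraries (SD, n = 3 each), so the groups did not overlap in the sum. Fabp1, the liver carrier, was at 4.72, 8.87 and 9.61 normalized counts in knockout libraries, against 301, 143 and 165 in wild-type, and fell by 4.52 on the log2 scale (adjusted p = 3.03e-05). Fabp12 was at 2.83, 20.7 and 15.4 in knockout libraries, against 637, 577 and 379 in wild-type, and fell by 5.55 (adjusted p = 3.78e-05). Fabp2, the intestinal carrier, was not called (log2 difference 0.85 ± 0.40 SE, limma adjusted p = 0.115), and Fabp6, Fabp7, Fabp9 and Pmp2 were too low to test.

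**Figure D2:**
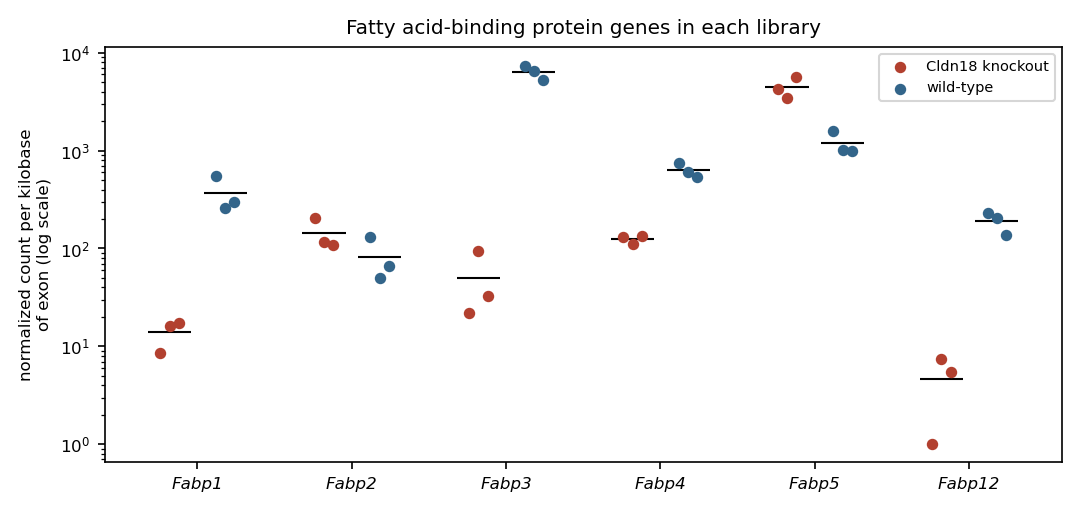
Levels of 6 fatty acid-binding protein genes in each library, as normalized counts per kilobase of exon on a log scale; those 6 reached 50 per kilobase in at least 1 library. For each gene the knockout libraries stand left of the wild-type libraries, points are libraries 1 to 3 and lines are means. Fabp3 stands highest in wild-type libraries (mean 6361) and Fabp5 in knockout libraries (mean 4438).

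The other genes of the pathway were followed through 7 lists. Of 114 members that passed the filter on values, 31 were higher and 34 lower in the knockout, that is 27.2% and 29.8%, beside 23.3% and 21.5% of all tested genes. Their median log2 difference was -0.16. A gene can pass that filter on the 3 libraries of 1 group alone. Differences and adjusted p-values below are from the same limma fit with Benjamini-Hochberg adjustment over all tested genes.

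Genes that mature, dock, activate or cleave lipoprotein lipase went both ways. Of 19 listed, 17 were tested, 7 were higher, 3 lower and 7 not called, with a median log2 difference of 0.32. The count of higher genes was 4 without knockout library 1 and 2 against wild-type library 1 alone. Gpihbp1, which encodes the endothelial platform of the enzyme, fell to 13.2, 37.7 and 46.1 normalized counts in knockout libraries, against 171, 221 and 132 in wild-type libraries (log2 difference -2.54 ± 0.46 SE, adjusted p = 0.00132). Furin, a proprotein convertase that can cleave the lipase, fell to 3065, 2264 and 5190.2 in knockout libraries, against 40760.3, 37376 and 23784 in wild-type libraries (adjusted p = 1.41e-05). Pcsk6, a related convertase, rose by 1.56 ± 0.18 and Apoe, an apolipoprotein made by macrophages among other cells, by 1.43 ± 0.28 (log2 difference ± SE). The call of Apoe was lost against wild-type library 1 alone (adjusted p = 0.059). Apoc2, the gene of the cofactor, was barely read, at 10.4, 11.8 and 19.2 normalized counts in knockout libraries and 20.8, 22.2 and 16.5 in wild-type libraries (adjusted p = 0.458).

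Among the 11 listed genes of other lipases 8 were tested, 2 were higher, 3 lower and 3 not called, with a median log2 difference of -0.33. Pnliprp2, a relative of pancreatic lipase, fell to 66.1, 156 and 135.5 normalized counts in knockout libraries, against 4543, 3098 and 2188 in wild-type libraries (log2 difference -4.80 ± 0.33 SE, adjusted p = 2.74e-06). Pnliprp1, of the same branch, fell by 1.06 on the log2 scale. Lipg, the endothelial lipase gene, rose to 372, 366 and 324 in knockout libraries, against 218, 152 and 124 in wild-type libraries (adjusted p = 0.0032). Against wild-type library 1 alone 1 gene was higher. Liph, which encodes a membrane-bound phospholipase, was higher by 0.67 ± 0.16 (log2 difference ± SE), a call lost against wild-type library 1 alone (adjusted p = 0.0755). Lipf, the gastric lipase gene, was at 1.89 to 7.39 normalized counts in knockout libraries and 2.47 to 6.80 in wild-type libraries and was not tested.

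Lipoprotein receptor genes were all tested, with 6 of 11 higher, 2 lower and 3 not called and a median log2 difference of 0.86. Vldlr, whose receptor takes up triglyceride-rich particles beside lipoprotein lipase, fell to 236, 396 and 308 normalized counts in knockout libraries, against 1443, 1164 and 1158 in wild-type libraries (log2 difference -2.02 ± 0.20 SE, adjusted p = 3.21e-05). Lrp8, which encodes a close relative of that receptor, rose by 3.07 ± 0.23 (log2 difference ± SE).

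Most partners of the lipid droplet were not called: of 23 listed, 21 were tested, 2 were higher, 5 lower and 14 not called, with a median log2 difference of -0.31. Against wild-type library 1 alone 1 was higher. Abhd5, whose product activates adipose triglyceride lipase, was higher at 1057, 936 and 1135 normalized counts in knockout libraries, against 788, 619.9 and 457 in wild-type libraries (log2 difference 0.78 ± 0.20 SE, adjusted p = 0.00942). That call was lost against wild-type library 1 alone (adjusted p = 0.122). The genes of 2 inhibitors of the same lipase, G0s2 (-0.18 ± 0.66) and Hilpda (0.21 ± 0.28, log2 difference ± SE), were not called. Cidec, a droplet fusion gene, rose by 1.58 ± 0.33, while the coat gene Plin4 fell by 2.52, the lipase gene Ddhd2 fell by 1.65 and the monoglyceride lipase gene Mgll fell by 0.93 on the log2 scale.

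Genes of fatty acid transport and activation, the carriers above included, gave 6 higher, 7 lower and 8 not called of 21 tested and 27 listed, with a median log2 difference of 0.12. Acsl1, the acyl-CoA synthetase gene best known from heart and fat, fell to 1166, 1591 and 1603 normalized counts in knockout libraries, against 6057, 6131 and 5131 in wild-type libraries (log2 difference -2.00 ± 0.16 SE, adjusted p = 7.1e-06). Ffar4, a receptor gene for long-chain fatty acids, rose to 213, 217 and 456.5 in knockout libraries, against 34.3, 21.0 and 33.0 in wild-type libraries (adjusted p = 7.76e-05).

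Genes that build triglyceride were higher in 6, lower in 6 and not called in 9 of 21 tested, of 22 listed, with a median log2 difference of -0.15. The 2 monoacylglycerol acyltransferase genes went opposite ways. Mogat1 fell to 229, 232 and 210.5 normalized counts in knockout libraries, against 3867, 2045 and 2438 in wild-type libraries (log2 difference -3.58 ± 0.22 SE). Mogat2 rose to 463, 492 and 551 in knockout libraries, against 12.2, 23.5 and 31.1 in wild-type libraries (4.52 ± 0.35 SE). Gpam, which starts glycerolipid synthesis at mitochondria, fell by 2.24 on the log2 scale. Lpin1, a phosphatidate phosphatase gene, fell by 1.23, a call lost against wild-type library 1 alone (adjusted p = 0.0537).

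PPARs are nuclear receptors that bind fatty acids, and Lpl, Cd36, Fabp3, Fabp4, Plin2 and Angptl4 are among their known target genes in other tissues. The 3 receptor genes did not move together. Ppara fell to 33.1, 37.7 and 27.9 normalized counts in knockout libraries, against 356, 312 and 253 in wild-type libraries (log2 difference -3.18 ± 0.28 SE, adjusted p = 1.38e-05). Pparg rose to 4124, 3514 and 4892 in knockout libraries, against 1343, 1125 and 1155 in wild-type libraries (1.78 ± 0.16 SE). Ppard rose by 0.84 ± 0.18, a call lost against wild-type library 1 alone (adjusted p = 0.0837). Over receptors and targets, 19 were listed, 15 tested, 2 higher, 8 lower and 5 not called, with a median log2 difference of -0.73. Against wild-type library 1 alone 1 was higher. Pdk4, which restrains glucose oxidation, fell by 2.72 on the log2 scale.

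**Figure D3:**
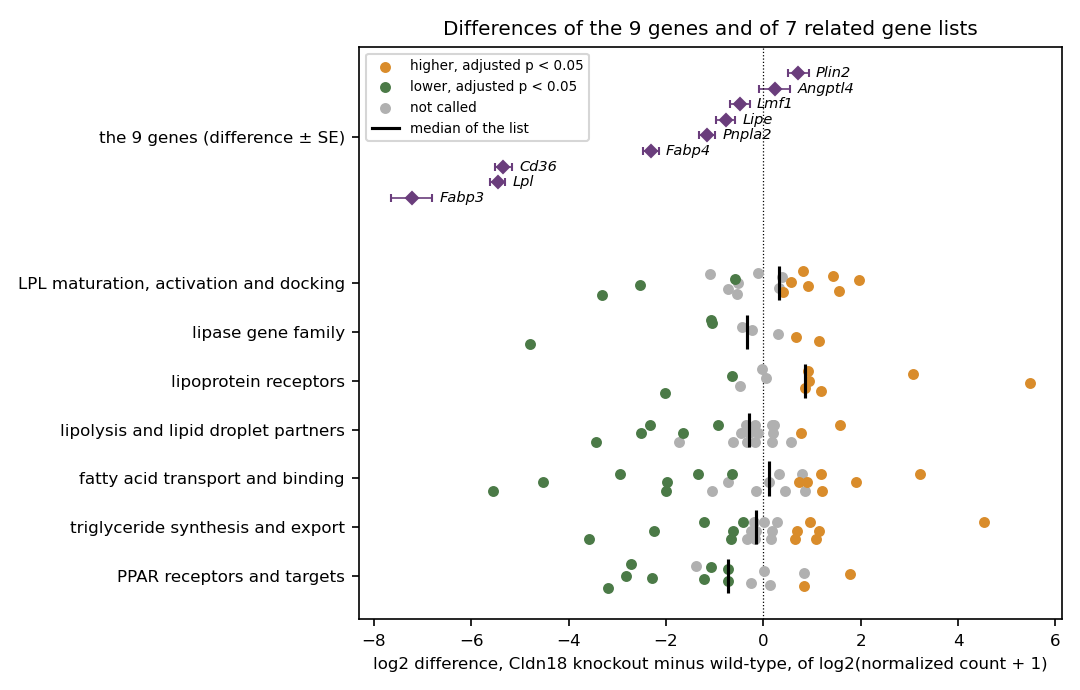
Log2 differences, knockout minus wild-type, of log2(normalized count + 1). The top rows give the 9 genes with their SE, and each row below gives the tested members of a related gene list, coloured by call, with a black line at the list's median. Fabp3, Lpl and Cd36 lie to the left of -5, and the list medians lie between -0.73 and 0.86.

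Markers of several cell types differed between the groups as well. In bulk samples such as these, fewer cells of a type and less RNA per cell cannot be told apart. Parietal cell markers were lower in 10 of 10 cases, and their summed level was 8355 to 15666 normalized counts in knockout libraries, against 429937 to 556120 in wild-type libraries. In wild-type libraries most of this sum came from the proton pump gene Atp4a, at 307686, 283956 and 239137. In knockout libraries Atp4a was at 1175, 5217 and 2094, which was not most of the sum. Chief cell markers were lower in 6 of 8, with a summed level of 47817 to 81188 in knockout libraries and 1509821 to 2509364 in wild-type libraries. Endothelial markers were lower in 11 of 12 tested, with 3009 to 3935 in knockout libraries and 7435 to 11397 in wild-type libraries, and Pecam1 was at 434, 499 and 653, against 1731, 1337 and 1082. Markers of mucous neck and pit cells were abundant in both groups and summed to 428281 to 713099 in knockout libraries and 845420 to 1432721 in wild-type libraries, with 1 of 7 higher and 3 lower. Among them the neck cell mucin gene Muc6 was at 9220.5, 13050 and 6917 in knockout libraries, against 31601, 27172 and 33951 in wild-type libraries. Muc6 was added after its values were seen and does not stand for the list, where 3 of 7 were not called. Macrophage markers were higher in 7 of 12 and lower in 1, with sums of 5324 to 10113 in knockout libraries and 2930 to 4333 in wild-type libraries. Their part in the differences of the 9 genes was not tested.

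Set against the parietal marker sum of the same library, the levels of Cd36 and Lpl overlapped between the groups. Atp4a was most of that sum in wild-type libraries only. These ratios thus depend on the markers listed, and they do not measure levels per parietal cell. Cd36 was at 13.8, 10.4 and 12.3 normalized counts per 1000 of the parietal sum in knockout libraries, against 11.5, 10.7 and 11.3 in wild-type libraries. Lpl was at 45.9, 20.98 and 39.996 per 1000 in knockout libraries, against 36.2, 30.5 and 34.2 in wild-type libraries. Fabp3 was lower on this scale too, at 2.15, 4.999 and 2.59 in knockout libraries, against 10.9, 10.7 and 10.1 in wild-type libraries. Fabp4 was higher on it, at 70.3, 31.6 and 57.9 in knockout libraries, against 6.04, 5.39 and 5.60 in wild-type libraries. So were Pnpla2, Lipe, Lmf1, Angptl4 and Plin2, as any gene that falls less than the sum is higher on this scale. Per 1000 of the chief cell sum, Lpl was at 8.02, 4.05 and 7.00 in knockout libraries and 8.02, 7.45 and 9.73 in wild-type libraries, so that the groups overlapped there too. Cd36 did not overlap on that scale, at 2.41, 2.01 and 2.16 in knockout libraries, against 2.54, 2.61 and 3.21 in wild-type libraries. Per 1000 of the endothelial sum, Fabp4 was at 195, 159 and 153 in knockout libraries, against 295, 329 and 324 in wild-type libraries, and Lpl at 127, 105 and 106, against 1765, 1867 and 1976. Within the knockout group, library 2 was the highest for Fabp3, Cd36, Lipe and Lmf1, for 9 of 10 parietal markers and for the chief cell sum. It was the lowest for Lpl, Pnpla2, Fabp4, Angptl4 and Plin2, and for the macrophage and the mucous neck and pit sums.

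Fat and muscle are the tissues best known for this pathway. The adipocyte genes Adipoq and Plin1 were at 1.92 to 12.5 normalized counts in knockout libraries and 4.90 to 15.9 in wild-type libraries, and the brown fat gene Ucp1 at 6.73 to 14.04 in knockout libraries and 9.88 to 19.4 in wild-type libraries. White adipocyte markers summed to 732 to 898 in knockout libraries and 1134 to 1291 in wild-type libraries, with 1 of 10 tested higher and 3 lower. The list shares Plin1, Plin4, Cidec, Aqp7 and Adrb3 with the droplet partners above. Brown adipocyte markers summed to 184 to 223 in knockout libraries and 2922 to 3919 in wild-type libraries, with 1 of 5 tested higher and 2 lower. Nearly all of the wild-type sum was Cox7a1, a cytochrome oxidase subunit gene of heart and muscle that was at 54.8, 70.2 and 69.2 in knockout libraries, against 3791, 3274 and 2713 in wild-type libraries. Of the striated muscle markers 2 of 8 tested were lower and none higher. Their summed level was 485 to 645 in knockout libraries, against 2202, 28637 and 10945 in wild-type libraries 1, 2 and 3. Most of it was Acta1, the skeletal muscle actin gene, at 351, 474 and 495 in knockout libraries, against 1914, 28343 and 10619 in wild-type libraries. The highest of the other listed genes was Mylpf in the knockout libraries, at up to 39.4, and Ryr1 in the wild-type libraries, at up to 89.3. Lpl, Cd36, Fabp3 and Fabp4 were highest in wild-type library 1, where that sum was the lowest of the wild-type group. The parietal, chief, endothelial, mucous neck and pit, macrophage, smooth muscle, fibroblast and brown adipocyte sums were also highest there among wild-type libraries. Whether muscle contributed to the levels of these genes was not tested. Smooth muscle markers were lower in 4 of 10 and higher in none (11822 to 14165 in knockout and 12252 to 17580 in wild-type libraries). Fibroblast markers were higher in 3 of 8 and lower in 1 (28920 to 50309 in knockout and 24937 to 41113 in wild-type libraries).

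**Figure D4:**
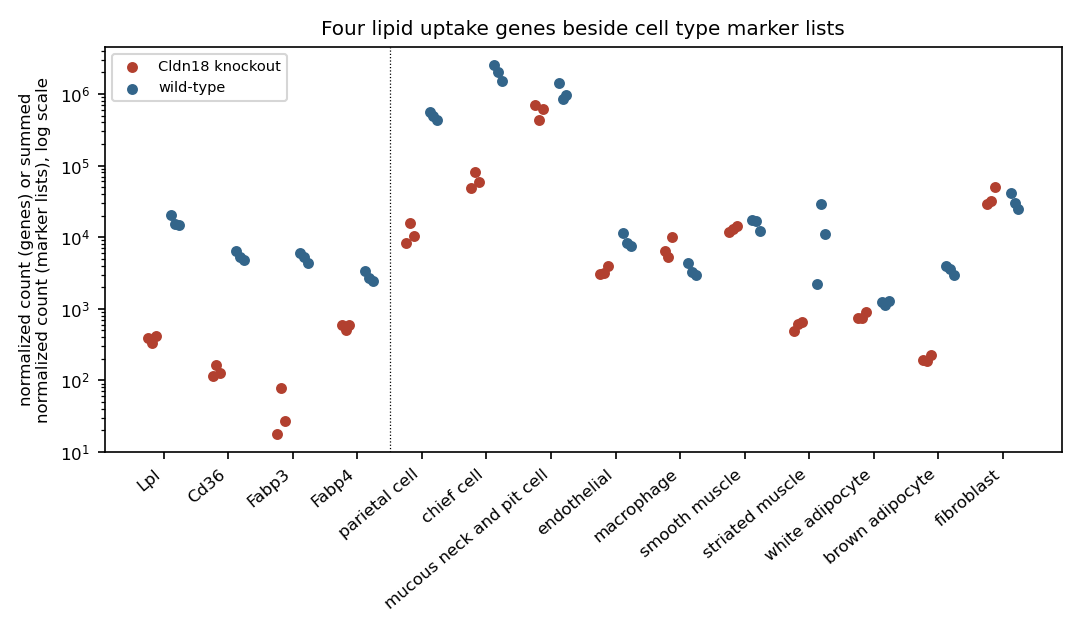
Normalized counts of Lpl, Cd36, Fabp3 and Fabp4 (left of the dotted line) and summed normalized counts of 10 cell type marker lists, on a log scale, with knockout libraries left of wild-type libraries for each; points are libraries 1 to 3. The parietal sum lies between 8355 and 15666 in knockout libraries and between 429937 and 556120 in wild-type libraries, and the striated muscle sum of wild-type libraries spreads from 2202 to 28637.

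The genes whose profile over the 6 libraries was most like that of Lpl were sought among 11776 genes with a mean of at least 100 normalized counts, by the root mean square difference of their centred log2 values, and the 9 genes themselves were ranked apart. The closest was Dmbx1, a homeobox gene, with a difference of 0.04, at 9.44, 7.39 and 10.6 normalized counts in knockout libraries, against 531, 404 and 391 in wild-type libraries. Gpr155, which encodes a lysosomal membrane protein, followed with 0.15, at 78.4, 85.0 and 77.9 in knockout libraries, against 3993, 3127 and 2946 in wild-type libraries. Cox7a1 came next with 0.20, then Obp2a, an odorant-binding lipocalin gene, with 0.30, and Hecw2, a ubiquitin ligase gene, with 0.30. Of the 9 genes themselves, Cd36 was closest to Lpl, with a difference of 0.25, which is smaller than those of Obp2a and Hecw2, followed by Fabp3 with 1.13. All of these share the same libraries and the same contrast, and the likeness is a description.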

How the data were processed

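RNA of the gastric neck region was sequenced in 3 Cldn18 knockout and 3 wild-type libraries. Per the submitters' processing notes STAR, featureCounts, DESeq and mm10 were used; roles, versions, annotation and strandedness were not stated (not given in the sources used). Values deposited by the authors are normalized counts per gene, a scaled signal. In each library 100% of the values were whole multiples of 1 number within 0.05 reads. The authors also deposited a comparison of 23086 genes with mean levels, p-values and a fold (the ratio of the means), used here only as an alternative. Among the symbols of the normalized counts, 27 had turned into dates.

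Log2(normalized count + 1) was fitted with limma 3.58.1 (lmFit, eBayes with trend, R 4.3.3), as a two-sided test adjusted by Benjamini-Hochberg over 17432 genes at 10 or more in at least 3 libraries, and called at adjusted p under 0.05. This scale understates the change of low genes. The code of the fit was tested on simulated data in which few genes differed and the scaling was known. That run thus does not check the scaling for a contrast as wide as this one. edgeR 4.0.16 on the recovered reads called 8047 genes, 7588 of them shared with the 7796 of limma; DESeq2 1.42.0 was also run. Exon lengths and positions are from GENCODE vM21, which matched 91.8% of rows by symbol. Listed genes absent under their symbol were matched by older RefSeq symbols (Adgre1, Angptl8, Cavin1, Gk, Gpat3 and Gpat4).

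The 9 genes, the lists and the tests were chosen with earlier results of these data known. Named were the 9 genes and Cldn18, up to 4 called genes per pathway list with the largest differences (groups apart, higher mean 100 or more), a fixed set of partners and markers, and the 5 genes most like Lpl outside the 9. Fabp2, Gm10570, Zcchc17, Fabp3-ps1, 4732471J01Rik, Muc6, Mylpf and Ryr1 were added after their values were seen. Some genes that the rule gave are not reported here. Alternatives changed the pseudocount, filter, scaling, test, threshold, replicate block and libraries.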

Additional observations from a re-analysis of the deposited data

How the results depend on the processing

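All of the 9 genes kept their direction in each of 18 alternatives, and Lpl, Cd36, Fabp3, Fabp4, Pnpla2 and Lipe stayed past the threshold in each. Since this contrast chose the 9 genes and the alternatives use the same libraries, this describes the processing only and is no further evidence of a difference. With 1 library left out at a time the log2 difference was -5.54 to -5.32 for Lpl, -5.48 to -5.23 for Cd36, -7.82 to -6.78 for Fabp3, -2.42 to -2.18 for Fabp4, -1.29 to -1.01 for Pnpla2, -0.89 to -0.61 for Lipe, -0.58 to -0.30 for Lmf1, 0.05 to 0.42 for Angptl4 and 0.54 to 0.85 for Plin2; 6 genes were called lower each time and 0 to 1 higher. The 1 higher gene, Plin2, was also lost (0 higher) against wild-type library 1 alone and at an adjusted p under 0.01. Against wild-type library 1 alone, whose own spread was taken to equal that of the knockout, Lpl was at -5.75, Fabp4 at -2.58 and Lmf1 at -0.85, and 2488 of all genes were lower, against 3743 with 6 libraries. The authors' deposited table had 2024 lower genes. Angptl4 reached 0.67 after quantile normalization, without a call. The cause of these shifts was not tested. Lmf1 passed the threshold in 3 of 18 alternatives. Over all alternatives 21 to 34 genes of the 7 pathway lists were higher and 30 to 40 lower. Of 35 genes that the naming rule gave from the pathway lists, Cldn18 included, 26 kept direction and call throughout. Uncalled genes that changed sign were Apoc2 (0.040 after quantile normalization), Hilpda (-0.28 against wild-type library 1 alone) and G0s2 (0.41 after quantile normalization, 0.29 with array weights, and -0.62 to 0.35 with 1 library left out, positive without knockout library 2 or wild-type library 1). Cldn18 lost its call without knockout library 1 (limma adjusted p = 0.0896) and at an adjusted p under 0.01. Scaling shifted the median log2 difference over all genes to 0.10 (quantile) and -0.15 (upper quartile).

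Libraries with the same replicate number did not deviate together (correlations of -0.00366, 0.0214 and -0.173), and no library was closest to its namesake. A replicate block gave 3726 higher and 3626 lower genes, and 1 of the 9 genes was called higher and 6 lower. At this depth Fabp3 rested on 19 reads in its lowest library, and genes with under 10 normalized counts in most libraries were not tested.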
